A study of Homo sapiens with 4 samples.

Results

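The 3837 BrdU peaks described here lay in intron 2 or a later intron of a protein-coding gene of at most 100 kb, out of 33295 peaks in the list and 32710 on chromosomes 1 to 22. A peak was assigned by its midpoint to the intron of the gene's canonical transcript (GENCODE, version 44), and peaks that overlapped an exon of a canonical coding transcript were left out. Where several genes covered a midpoint, the longest gene was used. Overlapping peaks on chromosomes 1 to 22 were also joined, and 2896 of the resulting sites met the same rule by their own midpoint and extent. These sites lay in 1495 genes, whereas the member peaks lay in 1497, and the 2 sets do not cover exactly the same peaks. The choice of members used positions and gene models, but no signal or base composition.

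The peaks came from BrdU-Seq of BJ-hTERT cells, foreskin fibroblasts immortalized with telomerase, which were released from serum starvation and collected at 16, 19, 22, 24 and 28 h, in 2 repeats. Peaks of each timepoint and repeat were called against the Input DNA of that repeat, and all calls stand in 1 list with chromosome, start and end as its columns. The list names no timepoint, repeat or score, so no spread between repeats could be given, the depth behind each peak is unknown, and the identity of the cells could not be checked against marker genes. The 4 ChIP-Seq samples (RNAPII and PCNA, 1 each at 14 and 16 h) were not analysed here.

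BrdU is a thymidine analogue that is built into new DNA, and a local excess of BrdU reads was used in the study to mark places where replication forks stall or pause. Introns are transcribed together with the exons by RNA polymerase II and then spliced out, so forks and polymerases can share this sequence where the gene is transcribed. Whether the member genes were transcribed in these cells was not measured here. In genes of this size the later introns are short and lie close to exons, and the coding strand, which has the sequence of the transcript, is often richer in T than in A. The questions asked here were where along the gene these peaks lay and which strand carried the T-rich sequence.

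Members differed widely in sequence, and 6 peaks, all read 5′ to 3′ on the coding strand of hg38, show the range. The most upstream peak in MALT1 that was no tandem array and at most 300 bp wide represents the gene with the most sites, and has no part in capitals.
MALT1 intron 2 (chr18:58687296-58687538, plus strand): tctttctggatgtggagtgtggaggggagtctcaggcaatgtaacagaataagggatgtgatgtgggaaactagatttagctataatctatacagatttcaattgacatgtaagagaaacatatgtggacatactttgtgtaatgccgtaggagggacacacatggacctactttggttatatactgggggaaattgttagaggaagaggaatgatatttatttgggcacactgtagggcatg
The peaks with the largest T excess and the largest A excess on the coding strand, among those up to 300 bp wide, were both repetitive. Capitals mark the first stretch of each, as long as the offset at which the peak matched itself best.
ADAP1 intron 4 (chr7:906138-906398, minus strand): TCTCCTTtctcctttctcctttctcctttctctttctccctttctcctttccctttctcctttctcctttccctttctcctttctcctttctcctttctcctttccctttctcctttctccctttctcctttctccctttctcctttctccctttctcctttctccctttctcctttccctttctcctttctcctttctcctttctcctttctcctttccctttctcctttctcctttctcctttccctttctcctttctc
MPPED1 intron 2 (chr22:43432518-43432806, plus strand): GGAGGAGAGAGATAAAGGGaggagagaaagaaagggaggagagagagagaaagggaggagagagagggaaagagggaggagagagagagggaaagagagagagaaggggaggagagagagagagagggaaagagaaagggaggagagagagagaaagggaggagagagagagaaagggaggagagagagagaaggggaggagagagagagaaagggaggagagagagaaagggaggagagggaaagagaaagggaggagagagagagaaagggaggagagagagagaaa
The ADAP1 peak held 144 T and 0 A in 261 bp. The MPPED1 peak held 136 A and 1 T in 289 bp.

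TMEM242, which encodes a small transmembrane protein, had more array peaks than any other member gene. In its array capitals mark the first 68 bp, the offset at which this peak matched itself best. They cover repeated copies of a 34 bp unit.
TMEM242 intron 3 (chr6:157314055-157314352, minus strand): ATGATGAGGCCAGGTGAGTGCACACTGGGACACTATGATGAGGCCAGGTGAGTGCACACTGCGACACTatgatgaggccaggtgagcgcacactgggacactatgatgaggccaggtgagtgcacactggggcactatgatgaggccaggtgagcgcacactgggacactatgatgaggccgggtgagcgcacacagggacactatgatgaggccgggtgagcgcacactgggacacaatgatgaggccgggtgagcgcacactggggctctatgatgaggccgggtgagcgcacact
The longest runs of alternating T and G, and of C and A, are shown because their hexamers were the most frequent ones in the members, and capitals mark the run.
MICOS10-NBL1 intron 4 (chr1:19632237-19632453, plus strand): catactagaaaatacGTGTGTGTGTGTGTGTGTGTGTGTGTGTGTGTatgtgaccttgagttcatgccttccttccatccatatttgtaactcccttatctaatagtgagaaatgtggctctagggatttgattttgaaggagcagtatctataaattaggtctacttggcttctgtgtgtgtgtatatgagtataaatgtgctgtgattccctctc
M1AP intron 7 (chr2:74569736-74569939, minus strand): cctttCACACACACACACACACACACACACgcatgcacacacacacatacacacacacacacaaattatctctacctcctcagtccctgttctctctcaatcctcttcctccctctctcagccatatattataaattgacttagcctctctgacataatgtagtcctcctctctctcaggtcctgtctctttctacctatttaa
The run had 32 bases in MICOS10-NBL1, a gene record that reads through a pair of neighbouring genes, and 25 bases in M1AP, a gene of meiosis.

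The later introns of genes to 100 kb held 13.0 sites per Mb (95% exact Poisson interval 12.5 to 13.5), on 223 Mb of intron. Later introns of longer genes held 9.46 sites per Mb, 5339 sites on 564 Mb. The ratio of 1.37 differed from 1 (exact conditional binomial test, p = 7.1e-42, adjusted p = 5.6e-41 over the 8 tests made). First introns, taken from protein-coding genes of any length, had 2854 sites, or 11.4 per Mb. The ratio of 1.14 also differed from 1 (exact conditional binomial test, p = 4.8e-07, adjusted p = 1.9e-06). First introns of genes to 100 kb were not set apart, so every comparison with first introns also compares gene lengths. Counted over the 198 Mb of midpoints where a peak of median width (280 bp) touches no exon, the density in genes to 100 kb was 14.7. Longer genes then held 9.74 and first introns 11.6, with ratios of 1.50 and 1.26 (exact conditional binomial tests, p = 4.3e-67 and p = 1e-18). These tests and the intervals count each site as independent and cover counting error only, although sites of 1 gene share their surroundings.

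The density followed gene length rather than a step at 100 kb. To follow it, the introns were divided into 692945 consecutive tiles of 300 bp that touch no exon, and sites were counted per Mb of tiles. A peak that touched an exon was no member, but the tiles beside exons were kept. Densities per Mb of tiles therefore run low where introns are short, and the size of this effect by gene length was not measured. In genes up to 10 kb there were 34 sites, or 6.63 per Mb (4.59 to 9.26). The density was 9.66 in genes of 10 to 20 kb, 12.8 at 20 to 30 kb and 13.0 at 30 to 50 kb. It reached 15.5 (14.6 to 16.6) at 50 to 75 kb and 15.7 (14.6 to 16.8) at 75 to 100 kb. Just beyond the limit, in genes of 100 to 200 kb, it was 15.2 (14.6 to 15.8), so members just inside and just outside the limit did not differ beyond their intervals. With genes of 50 to 100 kb against those of 100 to 200 kb, the ratio of densities over intron length was 1.01 (exact conditional binomial test, p = 0.73). The lower density of long genes came from those of 200 to 500 kb, at 9.97, and from those over 500 kb, at 3.92. With a limit of 50 kb instead, the ratios to longer genes and to first introns were 1.05 (exact conditional binomial test, p = 0.12) and 0.959 (p = 0.23 in the same exact test).

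**Figure D1:**
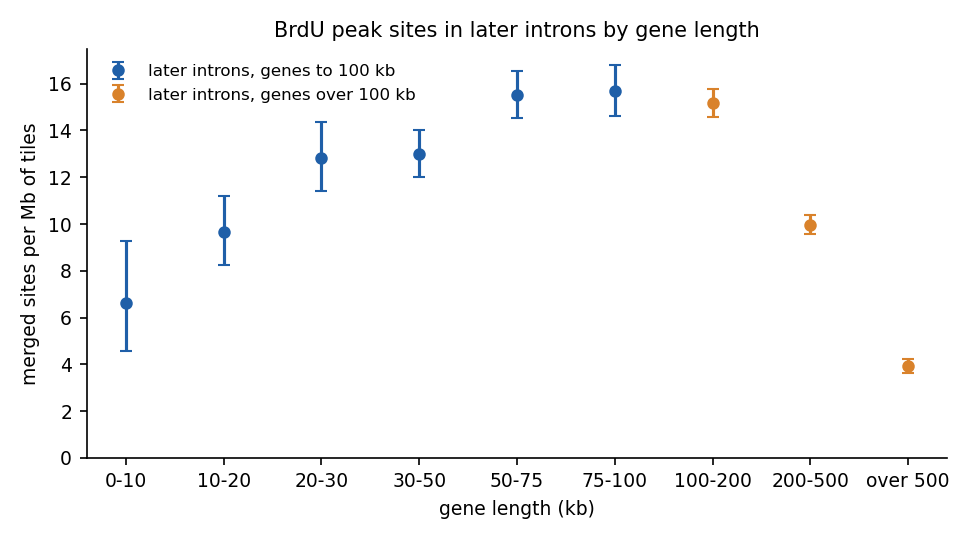
Merged sites in later introns per Mb of 300-bp tiles (y axis, starting at 0) by gene length in kb (x axis). Points are densities with 95% exact Poisson intervals, for genes to 100 kb (blue) and over 100 kb (orange). The density is 6.63 per Mb in the shortest genes, 15.7 at 75 to 100 kb, 15.2 at 100 to 200 kb and 3.92 over 500 kb.

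Among chromosomes the density over intron length ranged from 7.86 sites per Mb on chromosome 17 (6.40 to 9.56) to 18.2 on chromosome 2 (16.2 to 20.3). Chromosome 1 held the most members, 484 peaks in 396 sites.

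Sites were not gathered near the start of the gene. Of the member peaks, 41.1% (95% exact Clopper-Pearson interval 39.6 to 42.7, 1578 of 3837) lay in the upstream 50% of the transcript, and so did 40.4% of the tiles. The median peak lay at 57.2% of the transcript, 26.2 kb from the transcription start site (TSS), and the median tile at 57.5%. For sites the share was 41.4%, against 41.9% in genes over 100 kb (Fisher's exact test, p = 0.69, adjusted p = 0.69).

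The density along the transcript was close to flat, with its lowest value at the downstream end. In the 10 equal parts of the transcript it ranged from 11.6 sites per Mb of tiles in the last (9.91 to 13.5) to 15.2 in the first (12.03 to 19.0). In bp rather than in shares of the transcript, the ends stood lower than the middle. Within 2 kb of the TSS there were 8.55 sites per Mb (5.54 to 12.6, from 25 sites), compared with 15.1 at 20 to 30 kb and 15.6 at 50 to 100 kb. Within 2 kb of the transcript end there were 6.09 (4.33 to 8.33, from 39 sites), compared with 16.3 at 30 to 50 kb. These distances move with gene length, since only long genes have introns far from both ends, and their separate parts were not tested. Tiles beside exons, which few sites can fill without touching the exon, also enter these values. By the number of the intron, the density ranged from 13.1 sites per Mb to 15.9 over 8 classes. Introns 11 to 15 were the highest, at 15.9 (14.23 to 17.7), and intron 2, at 13.1 (12.1 to 14.22), lay just below that interval, a difference that was not tested.

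**Figure D2:**
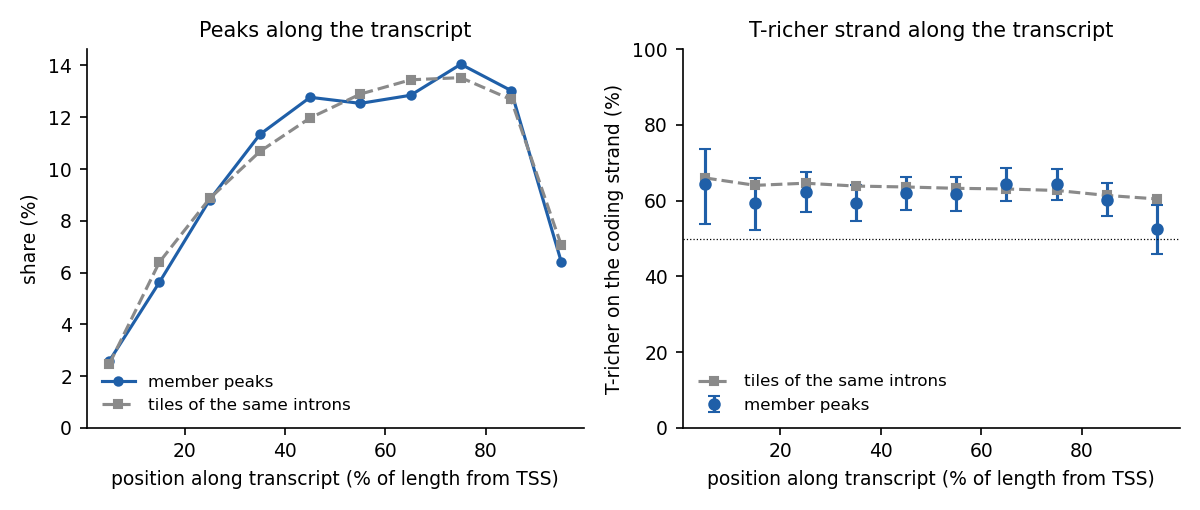
Left, the share of member peaks (blue) and of tiles of the same introns (grey) in 10 equal parts of the transcript from the TSS. Right, the percent T-richer on the coding strand in each part, with 95% exact Clopper-Pearson intervals for the peaks. The peaks follow the tiles along the transcript. The last part, the lowest of the 10, has 52.4% T-richer peaks against 60.5% of tiles, a difference that was not tested.

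Members lay close to an exon less often than the tiles of the same introns did. The midpoint was within 1 kb of an exon of the gene in 31.4% of member peaks (29.9 to 32.9) and in 43.6% of tiles. In later introns of longer genes these shares were 12.5% and 14.2%, and in first introns 5.88% and 9.07%. Because a wide peak cannot lie close to an exon without touching it, the distance was also read for the 2184 peaks up to 300 bp wide against windows of 300 bp that start every 50 bp. There, 31.0% of peaks and 41.8% of windows lay within 1 kb. These peaks had a density of 5.82 per Mb of window midpoints (5.12 to 6.59) at 150 to 500 bp from the nearer exon, 10.4 at 500 bp to 1 kb and 13.3 at 1 to 2 kb. Beyond 2 kb it stayed between 12.2 and 13.4.

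The low density near exons was also seen in long introns. In introns over 5 kb, the density was 5.13 (3.65 to 7.01, from 39 peaks) at 150 to 500 bp and 11.7 (9.74 to 13.9) at 500 bp to 1 kb. On the side of the 5′ splice site, the density at 150 to 500 bp in these introns was 6.06 (3.84 to 9.10), and on the side of the 3′ splice site 4.199 (2.40 to 6.82), so the sides did not differ beyond their intervals. Within introns, 50.2% of member peaks (48.7 to 51.8) lay in the upstream 50% of the intron, and 50.0% of tiles did.

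**Figure D3:**
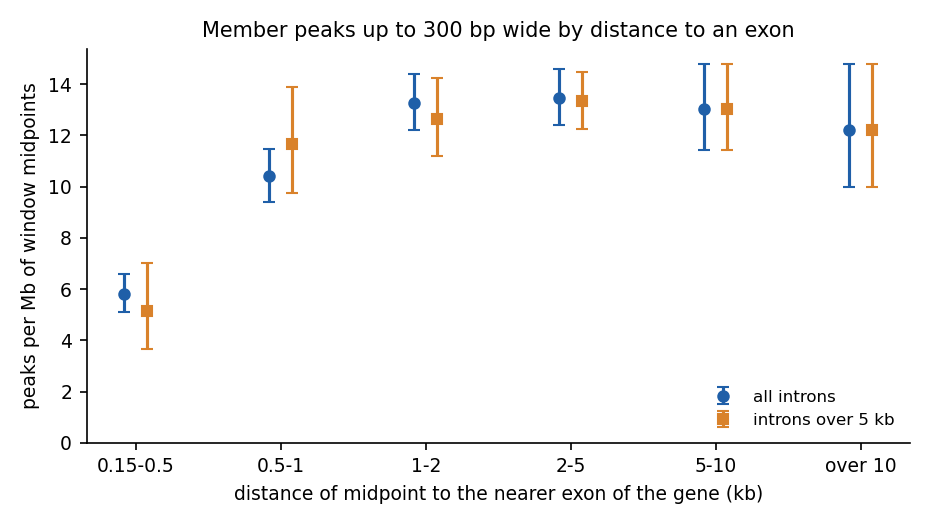
Member peaks up to 300 bp wide per Mb of window midpoints (y axis, starting at 0) by the distance in kb from the peak's midpoint to the nearer exon of the gene, with 95% exact Poisson intervals. Blue points are all later introns and orange squares those over 5 kb. The density at 0.15 to 0.5 kb is 5.82 and 5.13, and beyond 1 kb it is between 12.2 and 13.4 in both.

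Sites per Mb of tiles were lowest in short introns, where the rule itself leaves less room. A site that touched an exon was left out, and the part of this in the low values was not tested. Introns under 1 kb had 4.65 sites per Mb of tiles (3.51 to 6.04) and those of 1 to 2 kb 7.43 (6.40 to 8.59). The density was 13.8 in introns of 2 to 5 kb and between 16.2 and 16.7 in the classes above 5 kb. The median member peak lay in an intron of 6.89 kb, and the median tile in one of 5.52 kb.

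The T-rich strand of the members was the coding strand about as often as in the introns themselves. Of the 3821 member peaks with unequal T and A, 61.4% (59.9 to 63.0) were T-richer on the coding strand, and 63.1% of the tiles were. The interval of the peaks counts overlapping peaks separately. Among sites the share was 62.1% (60.3 to 63.9), an interval that holds the value of the tiles. In later introns of genes over 100 kb it was 63.4% of sites, a difference within counting error (Fisher's exact test, p = 0.25, adjusted p = 0.29). The share of 62.1% was lower than the 67.1% of sites in first introns of genes of any length (Fisher's exact test, p = 9.7e-05, adjusted p = 0.00026). The tiles of the first introns were also T-richer more often, 64.5%.

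In the first 9 of the 10 parts of the transcript the share ranged from 59.3% (52.4 to 65.9), in the second, to 64.4% (60.02 to 68.7), in the seventh, and the intervals overlapped. In the last part it was 52.4% (46.0 to 58.8), and 60.5% in the tiles there. This part held 246 peaks but 170 sites, so its interval counts overlapping peaks separately. It is singled out as the lowest of the 10 parts, and the difference was not tested. When peaks with another gene on the opposite strand at their midpoint were left out, 63.0% were T-richer on the coding strand, against 63.7% of tiles. Such a gene was present at 10.7% of member peaks and 10.1% of tiles.

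In many members T and A were unequal between the strands. The T excess, the difference of T and A over their sum on the coding strand, was 0.3 or more in either direction in 33.9% of member peaks (32.4 to 35.4, 1301 peaks), whereas 8.86% of the tiles reached it. The same held in later introns of longer genes, with 35.6% of peaks (34.4 to 36.7) and 8.98% of tiles, and in first introns, with 33.0% (31.5 to 34.6) and 8.40%, so the trait was not particular to genes of this length. With tandem arrays and short tandem repeat tracts left out of both, the shares were 31.9% and 7.70%. Of the 1301 strongly unequal peaks, 925 were T-rich on the coding strand, or 71.1% (68.6 to 73.6), and 376 were A-rich. Among strongly unequal tiles, 76.0% were T-rich, a value above the interval of the peaks. Of all member peaks, 2184 were no wider than a tile, and in those over 300 bp it was 37.7%.

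The inequality extended to each pair of bases that lie on 1 strand. On the coding strand, T and C together made up 65% or more of 13.4% of member peaks (12.4 to 14.6) and of 1.66% of tiles. A and G did so in 11.1% of peaks (10.1 to 12.1) and 1.07% of tiles. For T and G the shares were 11.8% and 0.942%. For A and C, they were 6.83% and 0.307%. Peaks in which C exceeded G on the coding strand were as frequent as tiles, 43.9% (42.4 to 45.5) and 43.8%.

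The members had a narrow range of base composition. The mean AT content was 58.7% ± 6.79 (SD over 3837 peaks), against 56.4% ± 9.32 over tiles. On the coding strand the mean peak had 31.9% T and 26.8% A, and the mean tile 29.7% T and 26.7% A. The density rose from 5.56 sites per Mb of tiles (4.75 to 6.48) at 45 to 50% AT to 32.7 (30.9 to 34.7) at 60 to 65%, and fell to 0.504 (0.203 to 1.04, from 7 sites) at 70% or more.

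Genes over 100 kb also had their highest density at 60 to 65% AT, and from 45 to 70% AT each class was lower than in genes to 100 kb. At 60 to 65% AT they held 19.5 sites per Mb of tiles (18.8 to 20.3), and at 45 to 50% AT 3.20 (2.70 to 3.78). Within 55 to 65% AT, the density in genes to 100 kb was 24.6 sites per Mb of tiles and in longer genes 15.3, a ratio of 1.61 (exact conditional binomial test, p = 2e-58). Against first introns of genes of any length, at 19.3, the ratio was 1.28 (exact conditional binomial test, p = 4e-14). The longer genes here include all lengths over 100 kb. Genes of 100 to 200 kb were not set apart in this range of AT content, so the ratio of 1.61 does not describe a step at 100 kb.

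**Figure D4:**
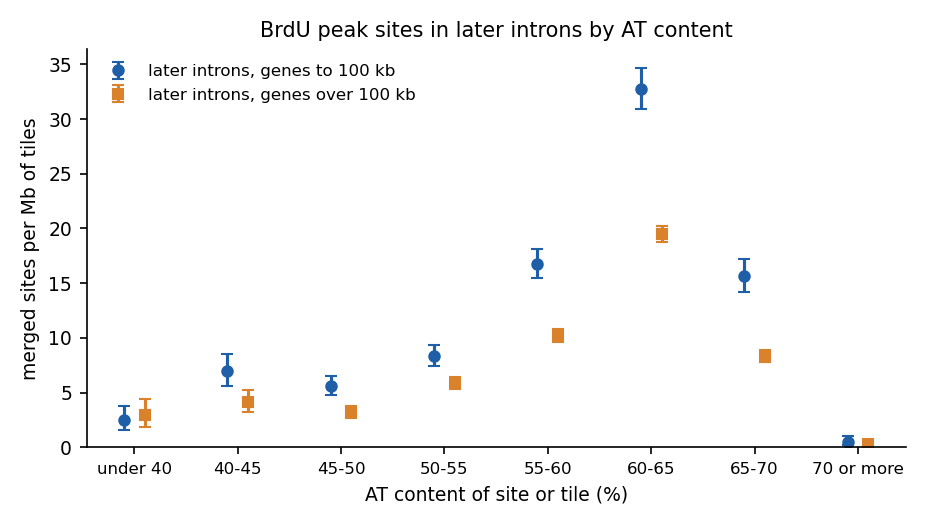
Merged sites in later introns per Mb of tiles (y axis, starting at 0) by the AT content of the site or tile, with 95% exact Poisson intervals. Blue points are genes to 100 kb and orange squares genes over 100 kb. Both are highest at 60 to 65% AT, with 32.7 and 19.5 sites per Mb.

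Alternating T and G led the hexamers of the members. Hexamers were counted over all member peaks, so bases under overlapping peaks counted more than 1 time, and arrays were kept. How much of each excess they carry was not measured. On the coding strand, TGTGTG made up 6.56 per 1000 hexamers in member peaks and 0.853 in tiles, and GTGTGT 5.91 and 0.712. The same sequence on the other strand, CACACA, made up 4.77 and 0.577. Perfect tracts of at least 20 bp were nevertheless rare. A TG tract on the coding strand was present in 35 peaks, 0.912% (0.636 to 1.27), against 0.351% of tiles. A CA tract was present in 12 peaks, 0.313% (0.162 to 0.546), against 0.237% of tiles. Over all units of up to 6 bp, tracts were present in 5.11% of peaks (4.43 to 5.85) and 5.58% of tiles.

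Other hexamers differed as well, with overlapping peaks and arrays again included. ATCCAT made up 2.67 per 1000 hexamers in member peaks and 0.266 in tiles, and its reverse complement ATGGAT 1.93 and 0.264. Single-base runs were rarer in the members. TTTTTT made up 1.39 in member peaks and 5.24 in tiles, and AAAAAA made up 0.640 against 3.71. CCCAGC was also rarer in member peaks, 0.154 against 0.958.

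Tandem arrays, sequence that matched itself at 70% or more of its positions at an offset of up to 120 bp, made up 11.2% of member peaks (10.2 to 12.3, 431 peaks in 184 genes) and 0.37% of tiles. The offset at which they matched themselves best had a median of 45 bp, with quartiles of 24 and 76, and was over 6 bp in 92.3%. This offset can be a multiple of the repeated unit, so the units themselves may be shorter. The arrays had an AT content of 49.6%, the other members 59.8%. They were T-richer on the coding strand in 60.7% of cases, the other members in 61.5%. Among sites, 6.46% were arrays, against 5.04% in later introns of longer genes (Fisher's exact test, p = 0.0086, adjusted p = 0.014). The call was lost with a match of 80%, where the shares were 3.25% and 2.98% (Fisher's exact test, p = 0.5), and between genes of 50 to 100 kb and 100 to 200 kb, where the difference was 0.96 percentage points (Fisher's exact test, p = 0.17). With a limit of 50 kb the difference was 2.89 points (Fisher's exact test, p = 0.00013). Reads from arrays can map to several copies of the unit, and the part of this in the result was not tested.

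Sites that several calls shared were a minority. Of the 2896 sites, 2226 consisted of 1 peak, 513 of 2 and 95 of 3, and the largest number was 10. The share with overlapping peaks was 23.1%, against 19.1% in first introns of genes of any length (Fisher's exact test, p = 0.00016, adjusted p = 0.00031). In longer genes it was 21.8% (Fisher's exact test, p = 0.17, adjusted p = 0.23). Against longer genes, the difference passed the threshold with a limit of 50 kb, at 3.66 percentage points (Fisher's exact test, p = 0.0061), and was -2.03 between genes of 50 to 100 kb and 100 to 200 kb (Fisher's exact test, p = 0.13). Arrays were more frequent in sites of several peaks, 3.91% with 1 peak, 10.3% with 2 and 22.1% with 3. Overlapping calls can stem from other timepoints or from the other repeat, which the list does not separate.

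Of 12053 genes to 100 kb with later-intron sequence, 1497 held a member, which is 12.4% (11.8 to 13.0). A single site was present in 922 of the genes, 285 held at least 3 sites and 20 at least 10. The 150 genes with the most sites, 10% of those with a member, held 33.1% of all sites. Neighbouring sites of a gene lay a median of 4.18 kb apart, with quartiles of 1.21 and 10.3 kb, and 21.4% of the 1401 distances were under 1 kb.

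The gene with the most sites was MALT1, which encodes a protease and scaffold of NF-kB signalling, with 18 sites from 21 peaks in 83.0 kb on chromosome 18. The sites lay in 8 introns between 13.9% and 82.6% of the transcript, and 9 were T-richer and 9 A-richer on the coding strand. ZNF451, a SUMO ligase with zinc fingers, had 16 sites from 23 peaks, and the gene record ENSG00000285791 had 16 sites from 17 peaks. CEP152, a scaffold of centriole duplication, followed with 14 sites, of which 10 were T-richer on the coding strand. None of these 4 genes held an array site.

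USP53, of the ubiquitin peptidase family, RAB3B, a GTPase of vesicle release, M1AP and RECK, an inhibitor of matrix metalloproteinases, each had 13 sites. In M1AP 4 of the sites were T-richer on the coding strand and 9 A-richer, whereas in USP53 9 were T-richer and 4 A-richer. COPB1, a subunit of the COPI vesicle coat, ACTR3, a subunit of the Arp2/3 complex that branches actin, and RPRD1B, which binds the tail of RNA polymerase II, each had 12. All 12 sites of RPRD1B were T-richer on the coding strand, with T from 31.1% to 43.1% of their bases.

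Per 100 kb of later intron, among genes with at least 3 sites, LARP6 was highest, with 3 sites in 3.18 kb, or 94.4 per 100 kb. LARP6 encodes a protein that binds collagen mRNAs, and its sites all lay in intron 2. BPGM, a mutase of red cell glycolysis, followed with 47.8 and 8 sites. PSG6 and PSG9, genes for pregnancy-specific glycoproteins on chromosome 19, had 38.9 and 37.5 with 5 sites each, and since members of this family are close copies, their reads may be shared. CAV1, the main coat protein of caveolae, had 37.2, with 12 sites in intron 2 between 15.9% and 90.9% of a transcript of a 36.2 kb gene. The 12 sites of CAV1 each consisted of 1 peak, 6 of them T-richer and 6 A-richer on the coding strand. The gene record ENSG00000289694 had 36.4 with 4 sites.

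Many genes with several sites held both directions. Of the 285 genes with at least 3 sites, 63 had only T-richer sites and 24 had only A-richer ones. Since 62.1% of all sites were T-richer, genes with many sites will mostly be mixed in any case, and a departure from that was not tested. Of the 107 genes with at least 5 sites, 15 had only T-richer sites and 3 had only A-richer ones, and the median gene had 62.5% T-richer sites among its unequal ones. SLC1A7, a glutamate transporter of the retina, had 9 T-richer sites within intron 5, between 75.7% and 84.7% of the transcript, 3 of them arrays. Most of these sites matched themselves best at an offset of 23 bp, so they lie in repeats of 1 kind and are not independent places.

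Among genes that the study names, BRCA2, which acts in recombination repair, had 5 sites from 7 peaks in introns 13, 16 and 24. All 5 were A-richer on the coding strand, with A from 33.7% to 37.2% and T from 22.8% to 26.8%. NUP153, a component of the nuclear basket of the pore, also had 5 sites, in introns 2, 5, 14, 17 and 20, and all were T-richer, with T from 39.0% to 42.6% and A from 20.5% to 26.8%. DLGAP5, which stabilizes microtubules of the spindle, had 9 sites from 11 peaks between 11.2% and 79.5% of its transcript, 5 T-richer and 4 A-richer. In TMEM242, 17 peaks formed 4 sites in intron 3, all arrays and all A-richer on the coding strand. Each whole site matched itself best at 34 bp, and the peak printed above at 68 bp.

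The widest peak spanned 3344 bp in intron 13 of SPPL2B, an intramembrane protease, within the site of 10 peaks at 76.0% of the transcript. This site matched itself at 64.7% of its positions at an offset of 45 bp, under the limit for an array. The largest T excess over all widths was 1.00, which the ADAP1 peak printed above also reached. Another peak with this excess, of 336 bp, lay in intron 12 of SCNN1D, the delta subunit of the epithelial sodium channel, with 31.0% T and no A. Both sites of SCNN1D were arrays that matched themselves best at an offset of 18 bp.

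**Figure D5:**
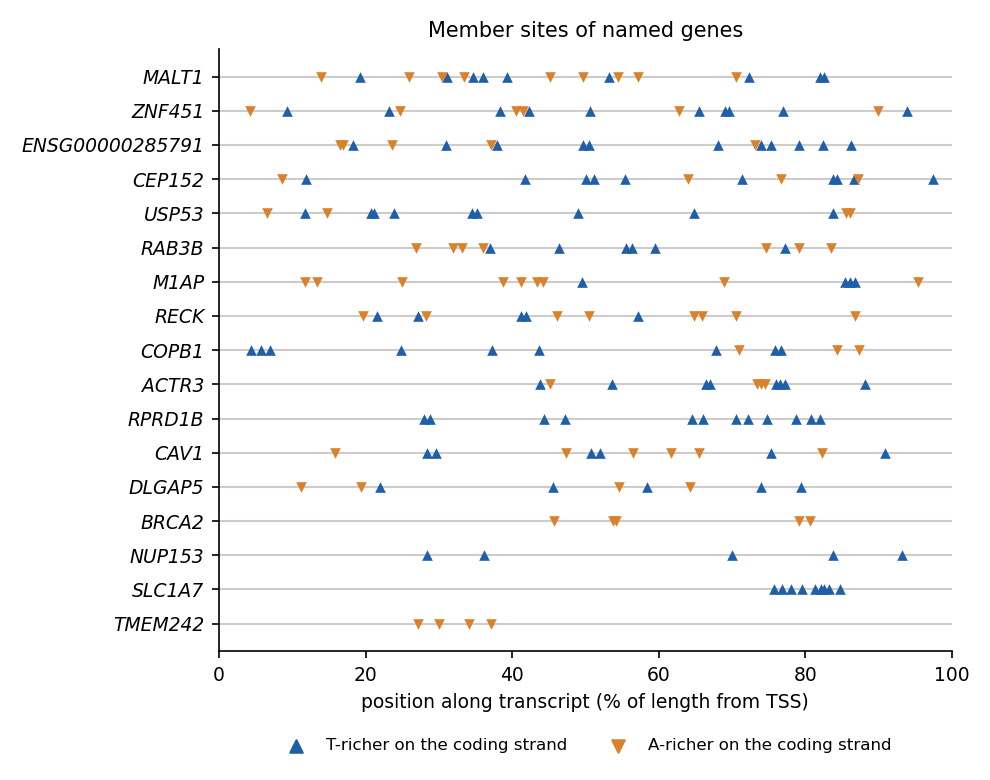
Positions of member sites along the transcript, in percent of its length from the TSS (x axis), in genes described in the text: those with the most sites and, from CAV1 down, 6 others. Blue triangles are sites T-richer on the coding strand and orange triangles sites A-richer. Both directions occur in each gene from MALT1 to ACTR3, RPRD1B has 12 T-richer sites, and BRCA2 has 5 A-richer ones.

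Gene groups differed in length, so the percent of genes with a member is given beside the sites per Mb of later intron, which were 12.4% and 13.0 over all genes with a median length of 25.4 kb. Of 38 genes of DNA repair and checkpoints, 12 held a member, 31.6% (17.5 to 48.7), with 16.4 sites per Mb (10.3 to 24.9) and a median length of 39.5 kb. They included XRCC6, the Ku70 end-binding protein, with 4 sites, FANCD2 of the Fanconi anemia pathway with 3, and XPC, a sensor of bulky lesions, with 2. Of 37 genes of DNA replication, 6 held a member, 16.2% (6.19 to 32.0), with 11.6 sites per Mb (6.003 to 20.3). TOP1, topoisomerase I, and WDHD1, which links polymerase to helicase, had 3 sites each, and TOP2A and ORC2 had 2 each.

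Of 23 nuclear pore genes, 7 held a member, 30.4% (13.2 to 52.9), with 17.4 sites per Mb (9.93 to 28.2) and a median length of 59.4 kb. NUP160, of the outer ring of the pore, had 5 sites. Of 34 genes of mitosis and the cell cycle, 4 held a member, 11.8% (3.30 to 27.5), with 24.0 sites per Mb (13.7 to 39.0), among them CENPF of the outer kinetochore with 6 sites, 5 of them T-richer on the coding strand, and the spindle checkpoint kinase BUB1B with 4, each of them T-richer. ECT2, which drives cytokinesis, also had 4.

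Of 19 genes of actin and adhesion, 4 held a member, 21.1% (6.05 to 45.6), and their density of 44.2 sites per Mb (24.7 to 72.8) had the only interval above the density over all genes besides that of mitosis. It rested on 15 sites, 7 of them in FERMT2, an activator of integrins, 4 in TPM1, a tropomyosin, and 3 in TLN1, a talin. Of 27 genes of the fibroblast matrix, 4 held a member, 14.8% (4.19 to 33.7), with THBS2, a thrombospondin, at 5 sites. For RNAPII transcription, 7 of 37 genes held a member, 18.9% (7.96 to 35.2), with GTF2E1 of the TFIIE complex at 3 sites. For splicing, 4 of 36 did, 11.1% (3.11 to 26.1), and no gene had more than 2 sites.

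Sites per Mb in the large families were at or below the value over all genes. Of 272 genes whose symbol starts with SLC, the prefix of solute carriers, 38 held a member, 14.0% (10.1 to 18.7), with 11.4 sites per Mb (8.91 to 14.3). This group was chosen by symbol only. SLC44A3, a choline transporter-like protein, led with 11 sites. Of 376 ZNF genes, 16 held a member, 4.26% (2.45 to 6.82), with 8.15 sites per Mb (5.82 to 11.1), and 16 of their 40 sites lay in ZNF451. None of 41 ribosomal protein genes did, on 0.127 Mb of later intron, where 0 sites allow up to 29.0 per Mb (upper end of the exact Poisson interval).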

How the data were processed

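According to the methods of the study, the authors aligned BrdU-Seq reads to hg38 with Bowtie 2 v.2.3.4.2 and called peaks against Input with MACS2 v.2.1.0. The submitters' processing notes name Bowtie2 2.3.3.1, SAMtools 1.4 and MACS2 2.1.0. The deposited list holds positions in bp, which the authors did not normalize. Start positions were taken as 0-based and are printed 1-based. Whether reads in repeats were filtered is not given in the sources used here, and low peak density in some sequence can follow from how reads map.

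Peaks were assigned to genes by GENCODE 44 and compared with tiles of 300 bp in the same introns, outside canonical coding exons. The 8 tests were exact and two-sided, with Benjamini-Hochberg adjustment and a threshold of 0.05. Shares have 95% exact Clopper-Pearson intervals and densities exact Poisson intervals. Tracts were perfect repeats, 20 bp or longer, with units of 6 bp or less. The members, tests and 11 gene lists were chosen with earlier results of these data known.

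Genes named are the 12 with the most sites, the 6 with the most per 100 kb among genes with at least 3, those of the extreme peaks, those the paper names, and up to 4 per list, apart from an item that is not reported here. Sequences were chosen among peaks up to 300 bp wide. Python 3.11.15, numpy 2.4.6, pandas 2.3.3, scipy 1.17.1 and numba 0.67.0 were used, and the code was tested on simulated data.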

Additional observations from a re-analysis of the deposited data

How the results depend on the processing

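Of 114 alternatives to 16 results, 82 kept direction, side of the threshold and, for shares, the interval of the value reported. With a limit of 50 kb, the density ratio to longer genes was 1.05 and that to first introns 0.959, the difference in sites with overlapping peaks rose to 3.66 percentage points and passed the threshold, that in arrays rose to 2.89, AT content was 57.7%, arrays made up 13.6%, 40.3% lay within 1 kb of an exon and 8.34% of genes held a member. Between genes of 50 to 100 kb and 100 to 200 kb, the density ratio was 1.01, and the differences were 1.21 points for the upstream 50% of the transcript, 0.96 for arrays and -2.03 for overlapping peaks. At 55 to 65% AT, the T-richer share differed from longer genes by 0.0738 points. An array match of 80% gave a difference of 0.268 points and 5.99% of peaks, and a match of 60% gave 18.7%. Merged sites had 59.4% AT, 6.46% arrays and 30.3% with a T or A excess of 0.3.

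One site per gene, the one nearest the TSS by construction, gave 50.6% in the upstream 50% of the transcript, 55.9% in that of the intron, 63.2% T-richer (tiles 63.1%), 8.03% arrays and 34.0% within 1 kb of an exon. Without any annotated exon, the last was 29.6%. Without arrays, AT content was 59.8% and 11.6% of genes held a member, and without tracts too, AT content was 60% and the share with an excess 31.9%. Without genes on the opposite strand, 63.0% were T-richer. Other limits of the excess gave 60.4% at 0.2 (tiles 27.5%) and 16.3% at 0.4 (tiles 2.01%), and peaks over 300 bp gave 37.7%. The causes were not tested. Chosen after seeing the data were the classes of 50 to 200 kb, the range of AT content and the T or A excess with its alternatives. So were the removal of tracts, the windows every 50 bp and the count over midpoints where a peak of median width touches no exon.

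Depth limits every value, since the list holds no read counts, and peaks of low signal cannot be told from those of high signal. Repeats carry no names here, so no fit by repeat was made. Leaving out a replicate could not be done for the same reason, and tiles do not account for how well reads map.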
